A study of Mus musculus with 12 samples.

Results

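The data describe genes for ion channels and neurotransmitter receptors in primary mixed glial cells of the mouse, and what happens to their transcripts when the cells meet interleukin-1β with or without its receptor. The genes were chosen by name alone: a probe belonged to the set when its annotation held 1 gene symbol and that symbol began with Kcn, Scn, Cacn, Clcn, Trpc, Trpm, Trpv, Gabr, Glr, Gria, Grik, Grin, Grm, Chrn, P2rx or P2ry. This gave 36 probes for 30 genes, out of 5723 genes with such a probe on the array. Each gene was described by the probe with the highest mean intensity, and 24 of the 30 genes had a probe with a value on every array used.

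Wild-type glia and glia of IL-1R1-/- mice, which lack the signalling receptor for interleukin-1, spent 10 to 12 days in culture once isolated. They then received rrIL-1β at 10 ng/ml, or vehicle alone, and RNA was taken 4 hours later. Total RNA was copied into cDNA labelled with 33P, a radioactive phosphorus isotope, and hybridised to 1 array per sample, 12 arrays in all. The treatments were paired within independent biological replicates, called cultures here, 3 for each genotype. The labels give neither the strain, the age of the animals, nor the part of Il1r1 that was deleted, and the values of the Il1r1 probe overlapped between the genotypes in vehicle (13.86 to 14.06 in IL-1R1-/-, 13.74 to 14.07 in wild-type, on the log2 scale), so they check nothing about the genotype labels.

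The deposited values are linear spot intensities whose array medians ran from 4649 to 60399. The 10 distinct arrays are paired within cultures, and the small number of cultures limits the precision of the values below. The columns of IL-1R1-/- culture 3 were rescaled copies of other columns: its IL-1β column matched the vehicle column of IL-1R1-/- culture 1 at 6531 of 6584 shared probes, and its vehicle column matched that of wild-type culture 1 at 5959 of 5982. That culture was left out, which leaves 3 wild-type and 2 IL-1R1-/- cultures. Levels are given as log2 intensities after quantile normalisation, and changes as log2 differences with the standard error (SE) of the limma fit. Changes also varied with the place of a probe in the order of the list, so each result that passed a test is given again with this position trend removed. Its removal took the standard deviation of the changes over all probes from 0.353 to 0.224 in wild-type glia. In IL-1R1-/- glia it went from 0.283 to 0.208.

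Ion channels let ions cross a membrane when voltage, a ligand, calcium, heat or stretch opens them, and most are built from a pore-forming subunit with auxiliary subunits that set its trafficking and gating. Glia use them differently from neurons: astrocytes take up potassium and respond to glutamate and ATP, and microglia couple potassium channels and ATP receptors to their activation. The genes best known for these tasks were thinly covered. Of 22 such genes listed for this report, among them Kcnj10, P2rx7 and Gria2, 3 had a probe with 1 symbol, namely Kcnn4, Trpv4 and Clcn2, and Clcn2 lacked values on some arrays. No probe of the GABA-A, glycine, AMPA, kainate or metabotropic glutamate families entered the set. What remained were 7 potassium channel genes (6 tested), 6 calcium channel genes (3 tested), 4 chloride channel genes (3 tested), 4 TRP genes (all tested), 2 muscle-type nicotinic receptor genes, 2 P2 genes, 1 NMDA receptor gene, 1 sodium channel gene and 3 genes that match by name but encode no channel or receptor subunit (2 tested). The 24 tested probes did not reach the brightest or dimmest ends of the array. Their mean log2 signal lay from 0.884 below to 0.853 above the median probe, a span that holds 85.1% of all tested probes. When the dimmest 25% of probes were left out, 17 of the 24 genes remained, and Kcnc1, described next, was not among them. No negative control spots are named in the files, so how far any of them stood above background is not known.

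Kcnc1, a voltage-gated potassium channel subunit known from fast-spiking neurons, was the 1 tested gene that passed the main test for IL-1β in wild-type glia. Its level went from 13.06 to 14.14 in culture 1, from 13.74 to 14.72 in culture 2 and from 13.62 to 14.34 in culture 3. Every IL-1β array lay above every vehicle array, and no other tested gene of the set spread as far over the 10 arrays (1.66 on the log2 scale). The rise was 1.90-fold (log2 0.93 ± 0.17 SE, 95% interval 0.55 to 1.30, 3 of 3 pairs higher, limma adjusted p = 0.0143). In IL-1R1-/- glia the same probe read 13.81 in vehicle and 13.98 with IL-1β in culture 1, and 13.90 and 13.82 in culture 2. Those 4 values lay between the wild-type vehicle arrays and the wild-type IL-1β arrays, and the change was 0.05 ± 0.21 (SE, n = 2 pairs, limma adjusted p = 0.968). The response was larger in wild-type glia by 0.88 ± 0.27 (95% interval 0.29 to 1.46), which did not pass the test of the difference over all probes (limma, unadjusted p = 0.00633, adjusted p = 0.192).

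The place of the Kcnc1 probe moved with this result. Of the probes within 10 places of it in the list, 16 were tested, 14 were higher with IL-1β in wild-type glia, and their median change was 0.638. The 8 tested probes in the same inferred plate well of other plates in the later part of the list were all higher, with a median of 0.701. Plates up to plate 11 of 23 were not counted there. With the position trend removed, which took 0.545 from its change, Kcnc1 read 0.38 (limma adjusted p = 0.274), with culture values of 0.55, 0.21 and 0.37 in wild-type glia against 0.10 and -0.15 in IL-1R1-/- glia. The call also ended without wild-type culture 1 (0.85, adjusted p = 0.0915), without wild-type culture 2 (0.90, adjusted p = 0.0657) and in a fit that ignores the pairing (adjusted p = 0.169).

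**Figure D1:**
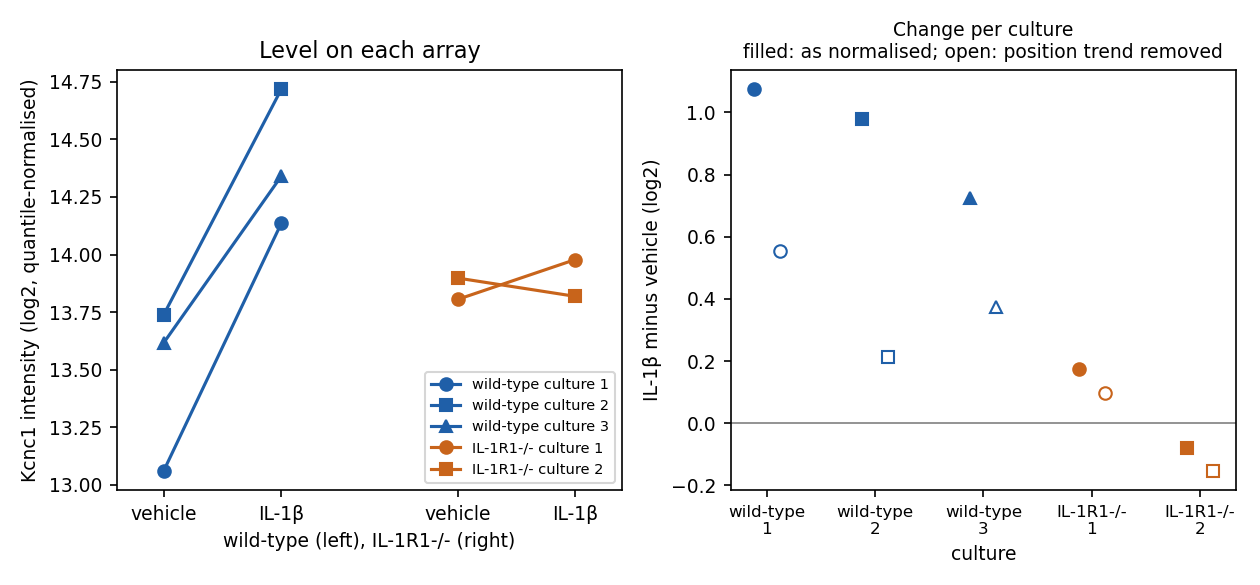
Kcnc1 in each culture. Left, log2 quantile-normalised intensity in vehicle and IL-1β, lines joining the 2 arrays of a culture, wild-type in blue and IL-1R1-/- in orange; right, the log2 change per culture as normalised (filled) and with the position trend removed (open). The 3 wild-type cultures rise by 1.07, 0.98 and 0.72 as normalised and by 0.55, 0.21 and 0.37 with the trend removed.

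Promoter windows from RefSeq (GRCm38.p6, 250 bases before to 50 after a start) are shown for Kcnc1, because it is the gene that passed a test. They are also shown for the 3 genes of the set whose windows match a loose motif for NF-κB or AP-1. These transcription factors act downstream of the interleukin-1 receptor, and their binding to the matched letters was not tested. Windows were at hand for 22 of the 30 genes, 32 windows in all. The motif GGGNNNTTCC for NF-κB and TGANTCA for AP-1 were searched on both strands, and the motifs did not overlap each other in the windows shown. Capitals mark matches, and each sequence reads 5′ to 3′ on the gene's own strand. The Kcnc1 window is at chr7:46396218-46396517, Trpv2 at chr11:62575377-62575676, Cacnb2 at chr2:14604056-14604355 and P2ry10 at chrX:107088242-107088541, all on the plus strand.
Kcnc1: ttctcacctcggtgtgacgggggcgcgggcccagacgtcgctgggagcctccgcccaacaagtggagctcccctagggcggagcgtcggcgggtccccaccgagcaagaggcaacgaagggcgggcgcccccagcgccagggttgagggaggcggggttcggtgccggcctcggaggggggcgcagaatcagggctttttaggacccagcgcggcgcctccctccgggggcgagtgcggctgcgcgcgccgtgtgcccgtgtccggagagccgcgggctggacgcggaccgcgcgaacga
Trpv2: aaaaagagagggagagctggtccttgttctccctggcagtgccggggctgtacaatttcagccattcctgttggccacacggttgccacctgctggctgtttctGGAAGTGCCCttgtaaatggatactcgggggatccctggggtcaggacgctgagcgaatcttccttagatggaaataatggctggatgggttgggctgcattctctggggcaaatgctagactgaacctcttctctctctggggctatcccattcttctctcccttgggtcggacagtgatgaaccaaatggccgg
Cacnb2: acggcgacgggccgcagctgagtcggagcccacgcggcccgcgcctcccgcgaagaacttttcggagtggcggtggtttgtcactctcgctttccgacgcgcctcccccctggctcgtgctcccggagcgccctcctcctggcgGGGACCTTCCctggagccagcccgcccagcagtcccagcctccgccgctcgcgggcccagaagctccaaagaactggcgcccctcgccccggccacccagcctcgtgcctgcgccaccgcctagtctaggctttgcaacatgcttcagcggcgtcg
P2ry10: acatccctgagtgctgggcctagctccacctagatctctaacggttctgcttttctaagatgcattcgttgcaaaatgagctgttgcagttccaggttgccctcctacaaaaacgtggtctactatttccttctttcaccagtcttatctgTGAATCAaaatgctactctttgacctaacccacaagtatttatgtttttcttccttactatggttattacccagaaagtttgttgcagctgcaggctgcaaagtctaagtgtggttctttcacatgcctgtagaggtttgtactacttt
The Kcnc1 window holds neither motif in these 300 bases. The NF-κB letters stood in 2 of the 32 windows of the set (6.25%) and in 5.56% of 32851 windows of all genes, and the AP-1 letters in 1 of the 32 (3.12%) and in 7.81% of all windows. Of the 3 genes with a match, Trpv2 and P2ry10 were tested and did not pass in any comparison (changes in wild-type glia of -0.18 ± 0.18 SE and 0.09 ± 0.17 SE), and Cacnb2 lacked values on 2 arrays.

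Across the 24 tested genes, 1 (4.17%) passed the test for IL-1β in wild-type glia, against 6.18% of all 5713 tested probes, or 4.55% that passed in the upward direction. With the position trend removed none of the 24 passed, against 0.403% of all probes, and the smallest adjusted p of the set was then 0.274. At an unadjusted p under 0.05, limma gave 1 of the 24 genes (4.17%) and 1205 of all probes (21.1%). Changes ran from -0.40 to 0.93 with a median of -0.04, and the median over all tested probes was also -0.04. All 3 pairs moved alike for 7 genes, or 29.2%, against 39.9% of all probes. These shares lay near or below those of the whole array. The median SE of the 24 changes was 0.179.

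Among the 5 other tested potassium channels, no fitted change in wild-type glia was larger than 0.225 in size. Kcnn4, the intermediate-conductance calcium-activated channel known from microglia, changed by -0.14, 0.07 and -0.06 in the 3 wild-type cultures (fit -0.04 ± 0.17 SE, limma adjusted p = 0.907). With the position trend removed its value was 0.14, so its sign is not settled. In the wild-type cultures it read 13.91, 14.34 and 14.68 in vehicle and 13.77, 14.41 and 14.62 with IL-1β. The cultures were thus further apart than the treatments. Kcnh2, the hERG delayed rectifier, read 0.15 ± 0.19 (SE) in wild-type glia and -0.41 with the trend removed, where 1 culture stood at -1.18 and the others at -0.11 and 0.05. Kcnk5, an acid-sensitive background channel, read 0.01 as normalised and 0.34 with the trend removed (limma adjusted p = 0.324). Kcnc4, a relative of Kcnc1, read 0.03 ± 0.17 (SE), and the small-conductance channel Kcnn1 read -0.22 ± 0.18 (SE).

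Of the TRP channels, Trpm4, a calcium-activated channel for monovalent cations, was lower in all 3 wild-type pairs. It read 14.23, 13.99 and 13.92 in vehicle and 13.65, 13.80 and 13.59 with IL-1β, and the groups did not overlap. The difference of -0.37 ± 0.17 (SE) did not pass (limma adjusted p = 0.243), and was -0.20 with the trend removed. Trpv2, a cation channel opened by heat and stretch, was also lower in 3 of 3 pairs, by -0.18 ± 0.18 (SE, limma adjusted p = 0.62). Its pairs read -0.48, -0.06 and -0.006, and the fit without wild-type culture 1 was -0.035. The sign of Trpv2 turned to 0.06 with the trend removed. Trpv4, the osmosensitive channel that astrocytes carry, changed by -0.68, 0.25 and 0.43 in the 3 cultures, a fit of 0.00 ± 0.22 (SE) with no direction.

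The muscle-type nicotinic subunits, the NMDA subunit and the chloride transporters gave the remaining genes with 3 pairs alike. Chrng, the fetal γ subunit of the muscle acetylcholine receptor, was lower by -0.30 ± 0.17 (SE, limma adjusted p = 0.347), and its second probe read -0.14 ± 0.19 (SE). Grin2d, an NMDA receptor subunit of early development, was lower by -0.33 ± 0.17 (SE, limma adjusted p = 0.296). Clcn4 and Clcn5, chloride-proton exchangers of endosomes, were higher by 0.26 ± 0.20 (SE, limma adjusted p = 0.498) and 0.14 ± 0.17 (SE, limma adjusted p = 0.68). Each of these 4 values was closer to 0 with the trend removed, between -0.06 and 0.13. Clcn7, the exchanger of lysosomes, read -0.32 ± 0.20 (SE) with 2 of 3 pairs lower. The lowest fitted change of the 24 tested genes belonged to Cacng4, an auxiliary protein that carries AMPA receptors to the membrane, at -0.40 ± 0.21 (SE, limma adjusted p = 0.287), with culture values of -0.69, 0.24 and -0.74.

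P2rx3, the ATP-gated channel of sensory neurons, and P2ry10, a P2Y-like receptor of lymphocytes, were the steadiest probes of the set. Over all 10 arrays P2rx3 spanned 0.434 and P2ry10 0.511 on the log2 scale, and their wild-type changes were -0.04 ± 0.17 (SE) and 0.09 ± 0.17 (SE). The 95% interval of P2rx3, -0.41 to 0.32, leaves out a change as large as that of Kcnc1. The same held for every other tested gene of the set, with furthest limits of -0.84 (Cacng4) and 0.70 (Clcn4). Scn3b, an auxiliary sodium channel subunit, read -0.17 ± 0.20 (SE), Chrnb1, the muscle acetylcholine receptor β subunit, -0.12 ± 0.19 (SE), and Cacng1, an auxiliary subunit of the muscle calcium channel, 0.06 ± 0.17 (SE).

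**Figure D2:**
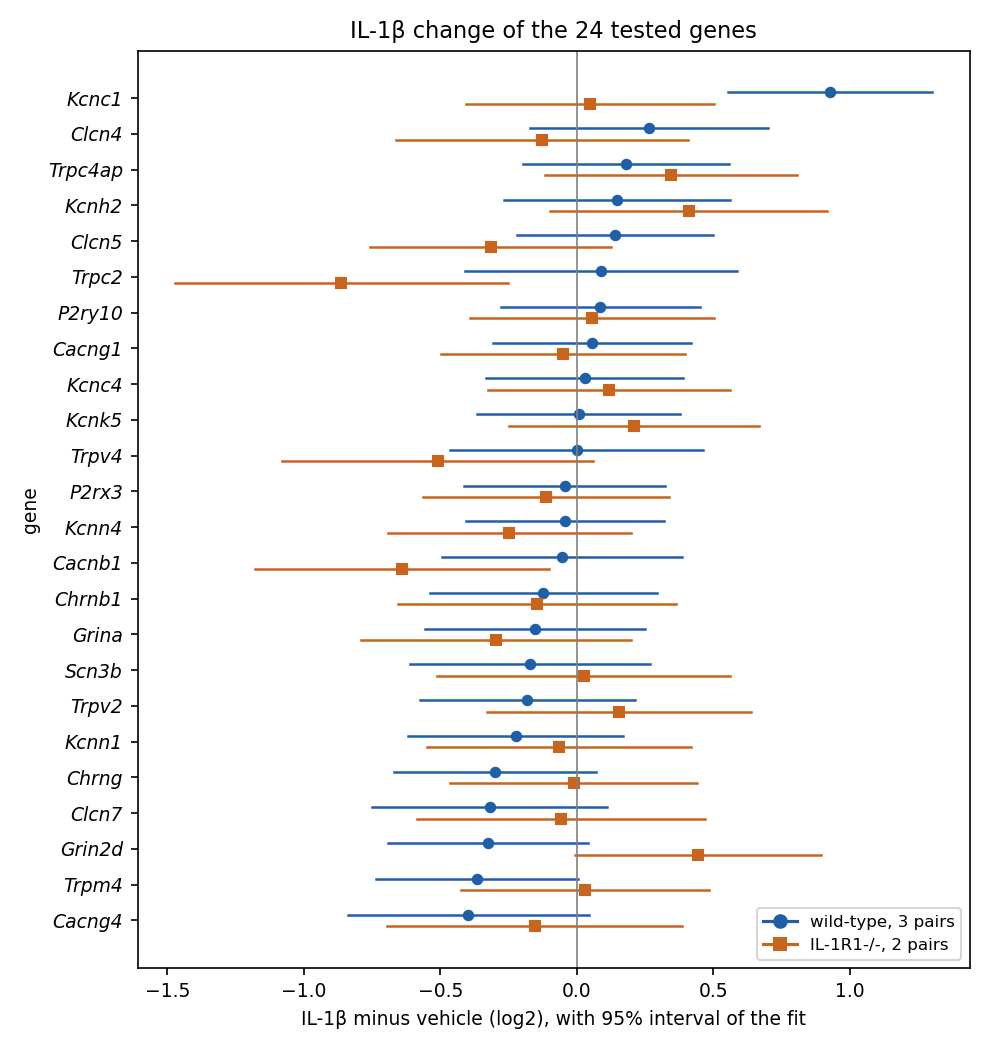
Log2 change with IL-1β of the 24 tested genes in wild-type (blue circles, 3 pairs) and IL-1R1-/- glia (orange squares, 2 pairs), with the 95% interval of the limma fit, ordered by the wild-type change. In wild-type glia the interval of Kcnc1 alone leaves out 0; in IL-1R1-/- glia those of Trpc2 (-0.86) and Cacnb1 (-0.64) do, without passing adjustment over all probes.

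**Figure D3:**
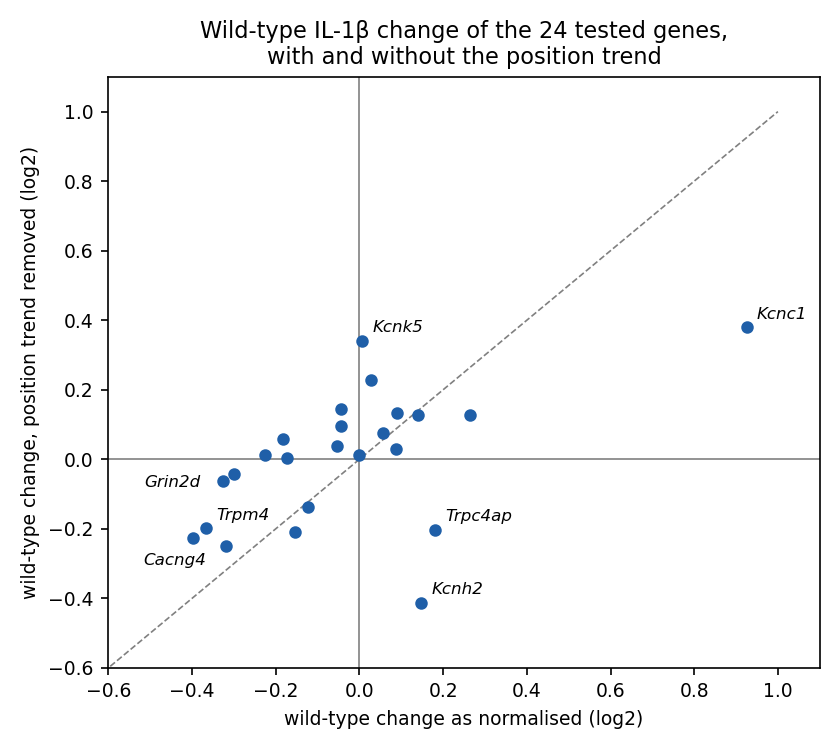
Wild-type change of the 24 tested genes as normalised (x axis, log2) against the same with the position trend removed (y axis, log2); the dashed line marks equal values. Kcnc1 moves from 0.93 to 0.38, Kcnh2 from 0.15 to -0.41 and Kcnk5 from 0.01 to 0.34.

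In IL-1R1-/- glia, where the design asks what IL-1β does without its receptor, none of the 24 genes passed the limma test, and none of all 5713 probes did (0%), with or without the position trend (0%). At an unadjusted p under 0.05 limma gave 2 of the 24 genes (8.33%) and 434 of all probes (7.6%), and no other tool was run. Both pairs moved alike for 12 genes (50%) against 63.2% of all probes. The median change was -0.06, against 0.01 over all probes, and the median SE was 0.22.

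The 2 genes at an unadjusted p under 0.05 were Trpc2, the cation channel of pheromone sensing in the vomeronasal organ, and Cacnb1, the β subunit of the skeletal muscle calcium channel. Trpc2 read 15.97 in vehicle and 14.83 with IL-1β in culture 1, and 15.32 and 14.73 in culture 2, a change of -0.86 ± 0.28 (SE, limma unadjusted p = 0.00899, adjusted p = 0.601). Cacnb1 read 16.002 and 15.06 in culture 1, and 15.31 and 14.98 in culture 2, a change of -0.64 ± 0.25 (SE, limma unadjusted p = 0.0233, adjusted p = 0.601). Their vehicle arrays lay above their IL-1β arrays. Both passed when arrays were centred on their medians instead of quantile-normalised (Trpc2 -1.27, adjusted p = 0.0135, and Cacnb1 -1.07, adjusted p = 0.0205), when arrays were not scaled (-1.24 and -1.04), and when the IL-1R1-/- arrays were fitted alone (-1.01 and -0.76). Over all probes, 177 of 5713 passed with median centring and 153 with no scaling, of which 1 was higher in either setting, and 336 of 7904 passed in the IL-1R1-/- arrays alone, of which 132 were higher. The 2 genes thus went in the direction of nearly all calls under both scalings. With the position trend removed they read -0.51 and -0.37.

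These probes of Trpc2 and Cacnb1 followed each other across the arrays of both genotypes. In wild-type vehicle glia Trpc2 read 14.80, 15.38 and 14.67, and Cacnb1 15.13, 15.54 and 14.87. With IL-1β Trpc2 read 15.61, 14.83 and 14.68, and Cacnb1 15.49, 15.01 and 14.88, so both were higher in culture 1, both lower in culture 2, and they moved by 0.01 and 0.01 in culture 3. Over the 10 arrays, which share 5 cultures, the correlation was 0.972, the 1 value above 0.9 among 351 pairs of tested probes of the set (median 0.0193); the pair is described because it was highest, with no test. A second probe of each gene did not follow the brighter one (correlation 0.0958 for Cacnb1 and 0.218 for Trpc2). The second Trpc2 probe was higher with IL-1β in every culture, by 0.53, 0.64 and 0.46 in wild-type and 0.23 and 0.43 in IL-1R1-/- glia, where the brighter probe was lower. Its wild-type change of 0.54 ± 0.17 (SE) did not pass (limma adjusted p = 0.0734) and was 0.06 with the trend removed. The 2 probes of Trpc2 thus differ in sign in both IL-1R1-/- cultures. The second Cacnb1 probe read -0.37 and 0.57 in those cultures (fit 0.10 ± 0.26 SE), with no settled direction. In all, 13 probes of the array correlated above 0.9 with that of Cacnb1, that of Trpc2 included, and among them those of Pigk, Cyp2j5 and Cd248 lie outside the set. The probe sequences were not used here, so whether these spots share sequence was not tested.

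**Figure D4:**
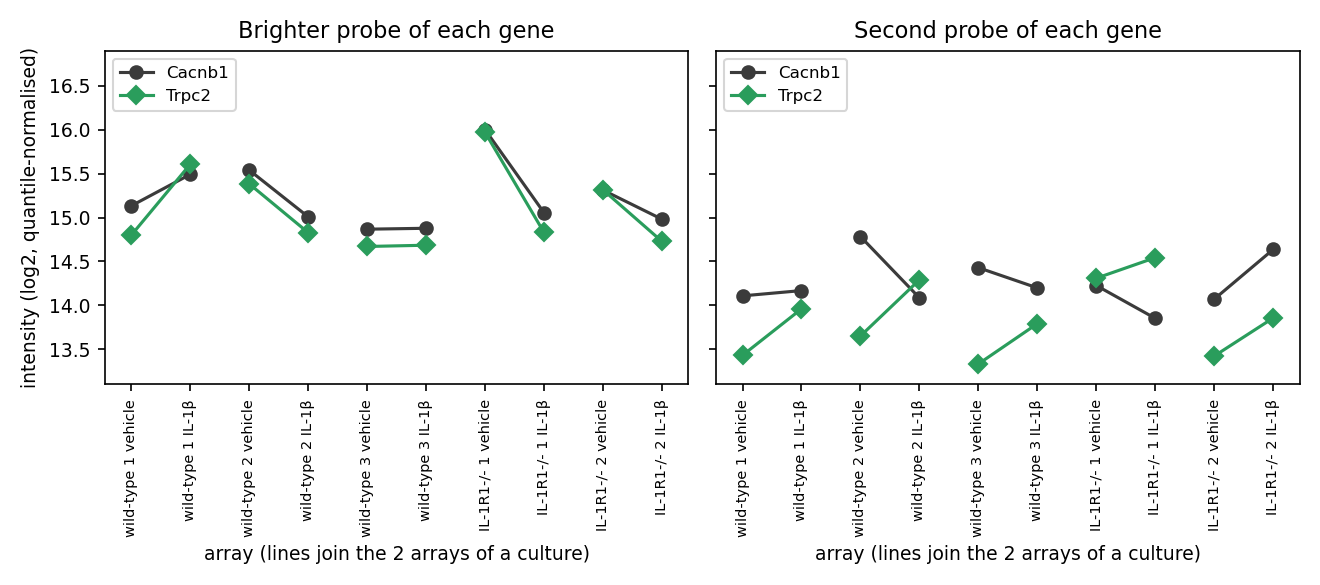
Log2 quantile-normalised intensity of Cacnb1 (circles) and Trpc2 (diamonds) on the 10 arrays, for the brighter probe (left) and the second probe (right) of each gene; lines join vehicle and IL-1β of a culture. The brighter probes move in parallel and both peak in IL-1R1-/- vehicle culture 1 (16.002 and 15.97), and the second probes do not follow them.

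The other values in IL-1R1-/- glia were smaller. Trpv4 was lower by -0.71 and -0.31 in the 2 cultures (fit -0.51 ± 0.26 SE, limma adjusted p = 0.686), against the mixed signs seen in wild-type glia. Kcnn4 was lower in both (-0.25 ± 0.21 SE), as was Grina (-0.30 ± 0.23 SE). Kcnh2 was higher in both (0.41 ± 0.24 SE), as were Trpc4ap (0.35 ± 0.21 SE), a protein that binds a TRP channel, and Kcnc4 (0.12 ± 0.20 SE), and the signs of Trpc4ap and Kcnc4 turned with the trend removed. The second Grina probe went the other way, higher by 0.13 and 0.49 in the 2 cultures. With the trend removed the 2 cultures also no longer moved alike for Grina (0.06 and -0.27) and Trpv4 (-0.41 and 0.01).

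For the difference of the response between genotypes, none of the 24 genes passed, against 0.158% of all probes as normalised and 0.158% with the trend removed. Limma gave 3 of the 24 (12.5%) and 804 of all probes (14.1%) an unadjusted p under 0.05. The changes of the cultures did not overlap between genotypes for 7 genes, or 29.2%, against 32.5% of all probes. The 3 genes were Kcnc1 (above), Trpc2 (0.95 ± 0.37 SE, limma adjusted p = 0.279) and Grin2d. Trpc2 and Cacnb1 passed here when arrays were centred on their medians or not scaled (Trpc2 1.48 and 1.47), settings under which 264 and 240 of all probes passed, 243 and 221 of them in the same direction. The Trpc2 difference was 0.65 with the position trend removed (limma adjusted p = 0.646). Grin2d went from 14.42, 14.35 and 14.27 to 14.02, 13.92 and 14.12 in the wild-type cultures and from 14.49 and 14.15 to 15.05 and 14.48 in the IL-1R1-/- cultures, lower in 3 of 3 and higher in 2 of 2 pairs, a difference of -0.77 ± 0.27 (SE, limma unadjusted p = 0.0131, adjusted p = 0.236). With the position trend removed the difference was -0.28, and wild-type culture 1 then moved up, by 0.14. Clcn5 went the other way, by 0.03, 0.23 and 0.16 in wild-type and -0.28 and -0.35 in IL-1R1-/- glia (0.46 ± 0.27 SE, limma adjusted p = 0.458). The Clcn5 difference was 0.21 with the position trend removed, and wild-type culture 1 then moved down, by -0.03. A second Clcn5 probe, with gaps, did not separate the genotypes: it changed by -0.22 and 0.12 in 2 wild-type cultures and by -0.57 and -0.13 in the IL-1R1-/- cultures. Trpm4 (-0.40 ± 0.27 SE), Chrng (-0.29 ± 0.27 SE) and Kcnn4 (0.20 ± 0.27 SE) also did not overlap between genotypes, and none of them passed. Trpv4, with overlapping changes, read 0.51 ± 0.34 (SE).

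Between genotypes without IL-1β, none of the 24 genes passed, against 0.0175% of all probes as normalised and 0% with the trend removed, and limma gave none of the 24 and 489 of all probes at an unadjusted p under 0.05. Intensities did not overlap for 4 genes, or 16.7%, against 28.4% of all probes. Grina, a membrane protein named for its link to the NMDA receptor that is no receptor subunit, read 14.39 and 14.80 in IL-1R1-/- and 14.98, 15.51 and 14.92 in wild-type vehicle glia (-0.54 ± 0.29 SE, limma adjusted p = 0.663). Its second probe went the same way in vehicle, at 13.95 and 14.27 in IL-1R1-/- and 15.45 in the 1 wild-type culture that had it. Clcn5 (0.38 ± 0.25 SE), Kcnc1 (0.38 ± 0.25 SE) and P2ry10 (0.31 ± 0.21 SE) lay higher in IL-1R1-/- glia without passing. Kcnn4 read 0.16 ± 0.27 (SE) and Trpv4 0.31 ± 0.30 (SE), with overlapping intensities. Without any scaling the median of all probes moved by 1.80 here and by 1.78 with IL-1β, so each genotype difference is relative to the bulk of the array.

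With IL-1β, none of the 24 genes differed between genotypes by the test, against 0.07% of all probes as normalised and 0.105% with the trend removed; limma gave 2 of the 24 and 284 of all probes at an unadjusted p under 0.05. Intensities did not overlap for 8 genes, or 33.3%, against 18% of all probes. The 2 genes at an unadjusted p under 0.05, Grin2d and Grina, went in opposite directions, and Grina is no receptor subunit. Grin2d was higher in IL-1R1-/- glia by 0.74 ± 0.23 (SE, limma unadjusted p = 0.00602, adjusted p = 0.889), and 0.45 with the trend removed. Grina was lower, at 14.25 and 14.35 against 15.19, 15.35 and 14.41 (-0.68 ± 0.29 SE, limma unadjusted p = 0.0353, adjusted p = 0.953), and -0.54 with the trend removed. The second Grina probe went the other way in the cultures that had it, at 14.07 and 14.76 in IL-1R1-/- and 13.87 in 1 wild-type culture. The others without overlap were Kcnc1 (-0.50 ± 0.25 SE) and P2rx3 (-0.22 ± 0.21 SE), lower in IL-1R1-/- glia, and Kcnn1 (0.33 ± 0.25 SE), Trpv2 (0.29 ± 0.25 SE), P2ry10 (0.28 ± 0.21 SE) and Trpm4 (0.23 ± 0.22 SE), higher there. Kcnn4 (-0.04 ± 0.27 SE) and Trpv4 (-0.20 ± 0.30 SE) overlapped. The comparisons within and between genotypes share arrays, so these values repeat in part those given for the responses.

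**Figure D5:**
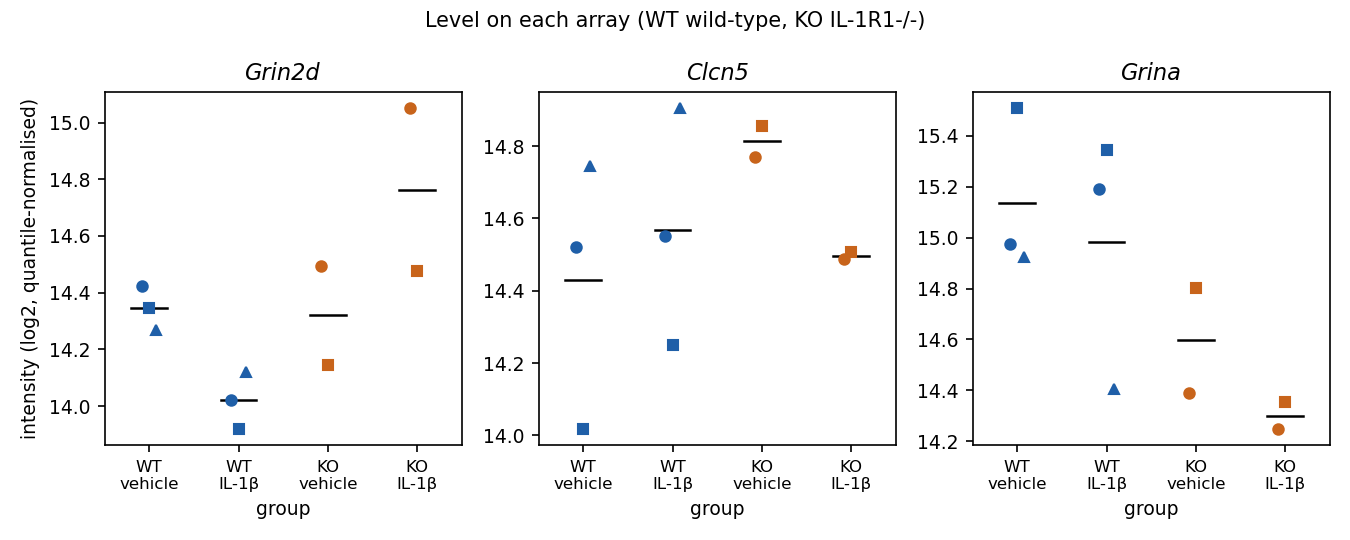
Log2 quantile-normalised intensity of Grin2d, Clcn5 and Grina on each array, by group (wild-type in blue, IL-1R1-/- in orange; marker shapes give the culture number, black lines the group means). With IL-1β, Grin2d lies between 13.92 and 14.12 in wild-type and at 14.48 and 15.05 in IL-1R1-/- glia; the y axes differ between panels and do not start at 0.

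The 6 genes with gaps were described and not tested in the main comparison. The files lack values for these probes on both arrays of a culture together. Cacna1g, a T-type pore subunit, changed by -0.25 and 0.13 in 2 wild-type cultures, and Cacnb2 by 0.24 and -0.34. Clcn2, a chloride channel of astrocytes, changed by -0.46, 0.03 and 0.18 in wild-type glia. Scnm1, a splicing factor named for its effect on a sodium channel, changed by -0.53, -0.41 and 0.13. Kcnq5, a subunit of the M-type potassium channel, went from 15.06 to 14.01 in the single wild-type culture with values, and Cacna2d1, the auxiliary subunit that binds gabapentin, from 13.94 to 14.69 in another. In IL-1R1-/- glia these 2 probes moved by no more than 0.13 in either culture. A value from 1 culture has no replicate check. The second probe of Grina stood at 15.45 in vehicle and 13.87 with IL-1β in the 1 wild-type culture that had it, and it was higher by 0.13 and 0.49 in IL-1R1-/- glia.

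Other genes that handle ions and transmitters were measured by 21 tested genes from 5 lists, and 2 of them passed for IL-1β in wild-type glia, where 6.18% of all probes did; with the position trend removed none of them passed, against 0.403% of all probes. Glul, the glutamine synthetase by which astrocytes clear glutamate, was lower by 0.84 on the log2 scale (-0.84 ± 0.20 SE, limma adjusted p = 0.0291), the 1 call among 3 of 18 genes of transmitter uptake and synthesis that were tested. Clic4, an intracellular chloride channel protein, was higher (0.80 ± 0.17 SE, limma adjusted p = 0.0242), the 1 call among 5 of 28 other channels. With the position trend removed they read -0.47 (adjusted p = 0.239) and 0.25 (adjusted p = 0.48). None of 5 pumps and exchangers, 7 receptor scaffolds and 1 other transmitter receptor (Gabbr1, -0.10 ± 0.18 SE) passed, and no gene of the 5 lists passed in IL-1R1-/- glia, between the responses or between the genotypes.

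Markers of cell types that a mixed glial culture can hold were few on the array: 3 of 10 astrocyte, 5 of 15 microglial, 3 of 11 oligodendrocyte, 2 of 12 neuronal, 1 of 8 meningeal and 4 of 9 endothelial or mural markers were tested. With so few, and with no background level, the labelled cell type could not be checked in full. The mean log2 level of the microglial markers ran from 15.49 to 15.89 in wild-type IL-1β arrays and from 15.75 to 15.88 in wild-type vehicle arrays, and that of the astrocyte markers from 14.08 to 14.41 and from 14.51 to 15.21. For the 2 neuronal markers these levels were 14.72 to 15.24 and 14.94 to 15.35, so they were not below the astrocyte markers. In IL-1R1-/- arrays with IL-1β the levels were 15.73 to 15.84 (microglial), 14.32 to 14.83 (astrocyte) and 15.25 to 15.29 (neuronal). In IL-1R1-/- vehicle arrays they were 15.835 to 16.12, 14.785 to 14.92 and 15.29 to 15.50. The astrocyte difference in wild-type glia rests on Id4 (-1.60 ± 0.19 SE, limma adjusted p = 8e-04), which held with the trend removed (-1.28, adjusted p = 0.00158). The other astrocyte markers, Sox9 and Slc1a2, read -0.20 and 0.10 and did not pass. Among the endothelial and mural markers Emcn was higher (0.84 ± 0.17 SE, limma adjusted p = 0.0187), and 0.30 with the trend removed. Tek, Cdh5 and Rgs5 of that list read -0.12, 0.04 and 0.22 and did not pass, so neither list moved as a whole. The part of these shifts in the channel and receptor values was not tested, and in such bulk samples fewer cells of a type and less RNA per cell cannot be told apart.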

How the data were processed

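The authors' deposited values are spot intensities on a linear scale, 1 column per array. Which scanner, software, background correction and normalization lie behind them is not given in the sources used. Per the labels' protocols, TRIzol was used to extract RNA, which was cleared of DNA and copied by reverse transcription in the presence of radio-labelled dCTP. Gene symbols came from the platform annotation (7153 of 8734 probes with 1 symbol), and a current table (GRCm38.p6) changed none of the 36 symbols used.

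Intensities were taken to log2 and quantile-normalised between 10 arrays over the 5713 probes (65.4%) with a value on all of them. Each probe was fitted with limma 3.58.1 (R 4.3.3), using lmFit and eBayes on a design of 1 coefficient per culture and a separate IL-1β coefficient for either genotype. Genotypes were compared through 4 group means, and culture entered as a random block (duplicateCorrelation, statmod 1.5.0, correlation 0.388). P-values were two-sided and were adjusted across the 5713 probes (Benjamini-Hochberg), 0.05 being the threshold. For IL-1β they rest on the spread of the paired changes among these cultures, pooled over both genotypes and moderated over probes by eBayes. For genotype differences they rest on the likewise moderated spread of arrays within groups, given the correlation within cultures. Pairing came from the design text; deviations of the 2 arrays of a culture correlated at 0.261 to 0.582.

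The position trend was the loess surface (span 0.2, degree 1) of each array's deviation from the mean of all arrays over row and column of plates of 16 by 24 wells, inferred from the probe order, in 2 parts split after plate 11 of 23. Across neighbouring probes the wild-type changes correlated at 0.636 before and 0.0911 after its removal. The fits were tested on simulated data.

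The genes named were those past the threshold, up to 5 per direction with the smallest p and all pairs alike (for genotypes, without overlap), and those with a known place in glia; the second probes, the pair Trpc2 and Cacnb1 and the genes with gaps were described beyond that, after their values were seen, as were the other genes of each family. The members, gene lists and tests were chosen with earlier results of these data known. Probes with several symbols, of which 5 match by name, were left out. Alternatives covered scaling, the position trend, blocks, the arrays fitted, dim probes, gaps and each culture left out.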

Additional observations from a re-analysis of the deposited data

Results flagged for a closer look

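Grin2d and Clcn5 moved in opposite directions in the 2 genotypes. Every wild-type culture was lower with IL-1β for Grin2d and every IL-1R1-/- culture was higher, a difference of -0.77 on the log2 scale (limma adjusted p = 0.236). For Clcn5 every wild-type culture was higher and every IL-1R1-/- culture lower, a difference of 0.456 (limma adjusted p = 0.458). The differences with the position trend removed were -0.28 and 0.21, and wild-type culture 1 then took the opposite sign for both genes (0.14 and -0.03). A second Clcn5 probe, with gaps, was lower in wild-type culture 1 (-0.22). The test of neither difference passed, and 709 of 5713 probes (12.4%) were opposed in the same way.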

How the results depend on the processing

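The count of genes of the set that passed for IL-1β in wild-type glia was 1 (Kcnc1) and became 0 with the position trend removed, with no replicate block, with all 12 columns and with dim probes left out; in the last pair of settings Kcnc1 itself was not tested. Leaving out each culture gave counts from 0 to 1, the 0 without wild-type replicate 1 and without wild-type replicate 2. In IL-1R1-/- glia the count of 0 became 2 (Cacnb1 and Trpc2) with median centring, with no scaling and with the IL-1R1-/- arrays alone, and for the difference between genotypes it became 2 with median centring and with no scaling. Both genotype comparisons kept a count of 0 under every alternative run. Cultures of the same number correlated across genotypes at 0.271 and 0.0817, against 0.261 to 0.582 for the 2 arrays of a culture. These ranges overlap, so the correlations do not settle whether numbers pair cultures across genotypes. A replicate block across genotypes left both counts at 0 and turned Kcnn4 to 0.138 with IL-1β.

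Signs turned for genes that passed no test, and the cause was not tested. In wild-type glia, Trpv4 read 0.0128 with median centring, 0.0296 with no scaling, 0.0116 with the trend removed and 0.0054 with all 12 columns, and ran from -0.217 to 0.340 over the cultures left out, positive without wild-type replicate 1. Kcnn4 read 0.143 with the trend removed and ran from -0.100 to 0.0058 over the cultures left out, positive without wild-type replicate 1; Trpv2 read 0.0593 with the trend removed. In IL-1R1-/- glia, Kcnc4 read -0.0255 and Trpc4ap -0.0107 with the trend removed, and Kcnc4 -0.0633 and Kcnn4 0.0378 with all 12 columns. For the difference between genotypes, Chrng read 0.0683 with the trend removed and Kcnn4 -0.0719 with all 12 columns. In vehicle, Kcnn4 read -0.0149 with all 12 columns and ran from -0.0395 to 0.343 over the cultures left out, negative without wild-type replicate 1. With IL-1β, all 12 columns gave 0.0569 for Kcnn4 and 0.0377 for Trpv4, and Kcnn4 ran from -0.292 to 0.134 over the cultures left out, positive without IL-1R1-/- replicate 1 (0.0118), wild-type replicate 2 (0.0280) and wild-type replicate 3. With no scaling, where the median probe itself moved by 1.80 and 1.78, Grina read 1.36 in vehicle, and with IL-1β Grina 1.09, Kcnc1 1.31, Kcnn4 1.77, P2rx3 1.57 and Trpv4 1.55.

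Over all probes, the 353 calls in wild-type glia ran from 14 (no replicate block) to 975 (gaps kept), with 23 after trend removal, 222 in wild-type arrays alone, 150 with all 12 columns and 28 to 203 without single cultures. In IL-1R1-/- glia 0 became 177 with median centring, 153 with no scaling and 336 in those arrays alone; for the difference between genotypes 9 became 264, 240 and, with gaps kept, 53. In vehicle glia 1 became 102 with median centring. How far dim probes stood above background is not known, and 2 IL-1R1-/- cultures limit every comparison with that genotype.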
